A study of Mus musculus with 27 samples.

Results

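The neuronal immediate-early genes Fos, Fosb, Junb, Egr1, Egr2, Egr4, Arc, Npas4, Nr4a1 and Ier2 were followed in 2 brain regions of adult mice, frontal cortex and striatum. They were listed by symbol, with earlier results of these data known, and all 10 were found among the 52636 gene identifiers of the count tables. All 10 also reached a level of at least 1 CPM (counts scaled to a common library size) in each of the 27 libraries, so none was lost to the filter on low values. The mice were wild-type or Igf2enh-/-, which are homozygous for a deletion of a 4.9 kb fragment between H19 and Igf2 that holds an enhancer of Igf2. Both genotypes were on the 129S1 background and about 2.5 months old. The deletion was inherited, so that the loss was confined neither to neurons nor to the adult, and the mutant allele still carries a loxP site, left when Hprt-CRE cut out the Pgkneo marker. Frontal cortex gave 6 wild-type and 6 Igf2enh-/- libraries, with 3 females and 3 males in each group. Striatum gave 7 wild-type libraries (3 females, 4 males) and 8 Igf2enh-/- libraries (4 of each sex). Each library is treated here as a separate mouse, as the labels tie no cortical library to a striatal one.

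Immediate-early genes are transcribed within minutes of synaptic activity, without any need for new protein, because calcium and kinase signals act on transcription factors such as CREB and the serum response factor that are already bound at their promoters. Most of their products are transcription factors that start a slower wave of genes, and their mRNAs are short-lived. Their level in a tissue sample can therefore follow what the animal did, felt or heard shortly before death, and they are widely used as markers of recently active neurons. In bulk tissue, fewer active cells and less RNA per active cell cannot be told apart.

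The windows directly before the start of transcription hold part of the sequence on which such signals can act. RefSeq (GRCm38.p6, the C57BL/6J reference, while the mice were 129S1) gave windows for 7 of the 10 genes, and those of Egr1, Arc and Ier2 were not analysed here. The 250 bases before the start were searched on both strands for the CRE half-site TGACG, at which CREB binds, and for the CArG box, at which the serum response factor binds. Windows of 5 genes are printed below to cover the range of the results. Among the 7 genes with a window, Fos and Egr2 had the largest differences between genotypes in frontal cortex and Fosb the smallest, Npas4 followed the other genes least closely across libraries, and Nr4a1 held the most half-sites. Capitals mark the half-sites and, in Egr2, also the CArG box. For Egr2, which has 5 annotated starts, 1 of its windows is shown.
Fos, chr12:85473640-85473889, plus strand: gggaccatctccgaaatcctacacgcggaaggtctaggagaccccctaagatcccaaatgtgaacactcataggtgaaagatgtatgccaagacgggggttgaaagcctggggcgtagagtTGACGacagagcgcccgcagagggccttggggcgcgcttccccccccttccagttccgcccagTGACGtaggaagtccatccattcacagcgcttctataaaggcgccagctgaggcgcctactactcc
Fosb, chr7:19310046-19310295, minus strand: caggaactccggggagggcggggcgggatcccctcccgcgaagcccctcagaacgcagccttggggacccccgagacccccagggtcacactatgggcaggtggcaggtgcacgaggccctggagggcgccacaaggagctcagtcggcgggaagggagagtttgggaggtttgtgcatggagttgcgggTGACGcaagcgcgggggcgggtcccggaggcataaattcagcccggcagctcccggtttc
Egr2, chr10:67537619-67537868, plus strand: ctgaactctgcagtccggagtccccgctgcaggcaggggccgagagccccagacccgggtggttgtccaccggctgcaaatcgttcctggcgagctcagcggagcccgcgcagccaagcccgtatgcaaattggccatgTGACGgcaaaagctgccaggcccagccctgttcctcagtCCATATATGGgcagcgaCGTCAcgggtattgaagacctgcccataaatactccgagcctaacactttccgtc
Npas4, chr19:4989972-4990221, minus strand: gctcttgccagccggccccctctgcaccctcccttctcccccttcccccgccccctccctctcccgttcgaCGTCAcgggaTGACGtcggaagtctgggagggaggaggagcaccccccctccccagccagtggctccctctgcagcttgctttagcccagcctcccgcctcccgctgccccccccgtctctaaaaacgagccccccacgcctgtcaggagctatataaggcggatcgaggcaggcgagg
Nr4a1, chr15:101266596-101266845, plus strand: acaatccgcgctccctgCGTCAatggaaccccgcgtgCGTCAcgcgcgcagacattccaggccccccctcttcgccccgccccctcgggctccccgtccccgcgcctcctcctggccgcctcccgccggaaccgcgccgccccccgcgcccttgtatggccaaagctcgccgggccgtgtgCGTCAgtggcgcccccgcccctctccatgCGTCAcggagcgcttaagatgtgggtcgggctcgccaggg

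All 7 genes held at least 1 half-site in a window (Egr2 in 3 of its 5), whereas 17.8% of all 32841 RefSeq windows of this length did. Fos had half-sites from base 129 to base 125 and from base 66 to base 62 before the start. Nr4a1 had 4, the nearest of them from base 40 to base 36. Fosb and Junb had 1 each, and Fosb's lay from base 60 to base 56. In 3 of the Egr2 windows a CArG box, CCATATATGG, lay between the pair of half-sites, and 1 further window held another CArG box and no half-site. A CArG box was present in 1.47% of all windows. The full palindrome TGACGTCA, which contains the half-site on both strands, was in none of the 7 genes and in 1.55% of all windows. Neither the AP-1 letters TGANTCA, bound by Fos and Jun proteins (6.75% of windows), nor the EGR letters GCGTGGGCG (0.536%) were found in these 7. Such matches describe letters and do not show that a factor was bound in these mice.

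Library totals ran from 23686945 to 33926904 counts, and the levels below are CPM after normalization by the trimmed mean of M-values (TMM) over all libraries. Igf2 itself, next to the deletion, lay between 51.9 and 107 CPM in wild-type and between 88.3 and 173 CPM in Igf2enh-/- frontal cortex. In striatum its ranges were 34.1 to 44.0 CPM and 46.0 to 259 CPM. Of the 10 genes, Fosb alone lies on chromosome 7, which also holds the deletion. The regions matched their labels: the summed level of 10 markers of striatal neurons was at most 252 CPM in wild-type cortex and at least 3749 CPM in wild-type striatum. Striatal library 20 (wild-type, male) had both that lowest striatal sum and the highest sum of cortical neuron markers, 1431 CPM against a wild-type median of 624 CPM. Striatal library 15 (Igf2enh-/-, female) held 4534 CPM of choroid plexus markers against a group median of 216 CPM. Results in striatum are therefore also given without these 2 libraries. Cortical library 1 (Igf2enh-/-, female) stood apart in the markers of other cells, as set out further on.

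The genes span a wide range of levels. Per kilobase of exon, wild-type frontal cortex had the most of Egr1, a zinc-finger factor with a high basal level in cortex, at 126 CPM per kb. Arc, a synaptic protein that governs the removal of AMPA receptors, followed at 89.0 CPM per kb. Nr4a1, an orphan nuclear receptor, stood at 44.4 and Junb, an AP-1 subunit, at 41.6 CPM per kb. Egr4 (20.2), Fos (15.6), Npas4 (8.05), Ier2 (6.53), Fosb (5.40) and Egr2 (5.21 CPM per kb) made up the lower end. In this order only the steps from Arc to Nr4a1, from Junb to Egr4 and from Fos to Npas4 were larger than the SD among wild-type libraries of both neighbours. Egr1 had 3500 to 11393 counts in each cortical library and Arc 708 to 11537. Egr2 reached only 43 counts in its lowest cortical library and Ier2 only 37 in its lowest striatal library, so counting error weighs most on these 2 genes.

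**Figure D1:**
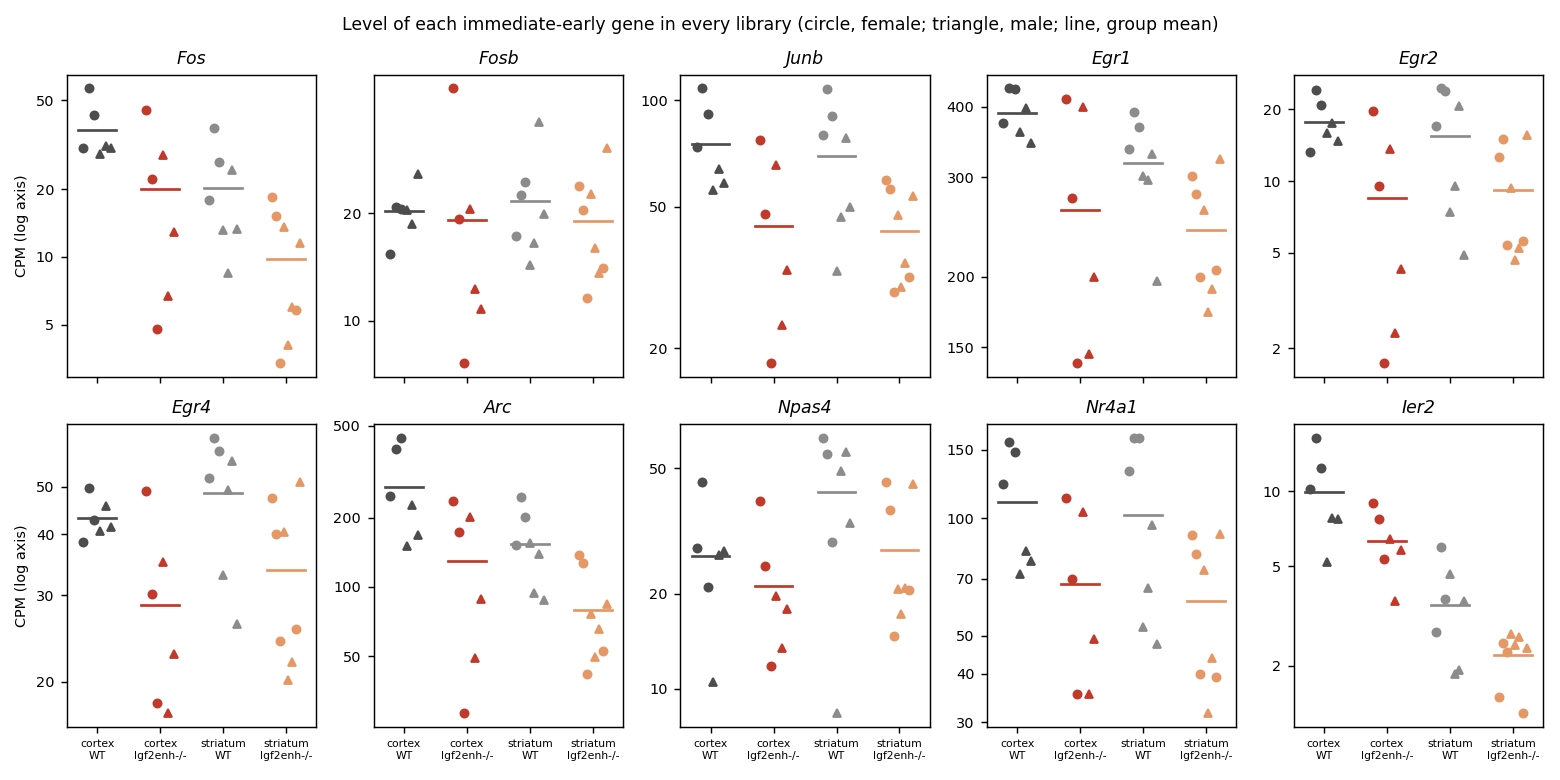
Each panel shows 1 gene, with TMM-normalized CPM on a log axis for every library of the 4 groups (circles, females; triangles, males) and a line at the group mean. The Igf2enh-/- points reach below the wild-type points for most genes, as for Fos in cortex (lowest 4.78 against 28.8 CPM), while the upper points overlap.

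The first question was whether loss of the enhancer altered these genes in frontal cortex. In the quasi-likelihood test of edgeR, adjusted over all genes, no gene passed 0.05, although all 10 had lower fitted levels in Igf2enh-/- mice. By this test 0.38% of the 13936 genes passed. At an unadjusted p under 0.05 the count was 8 of 10 genes, all lower, against 6.6% of all genes that were lower at this level. A log2 difference below 0 was shared with 49.6% of all genes. The median log2 difference of the 10 genes was −0.63, and that of all genes tested was 0.000735. The 10 genes move together from library to library, so these counts do not stand for 10 separate observations.

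Among the AP-1 subunits, Fos and Junb had lower means in Igf2enh-/- mice, and Fosb had nearly equal ones. Fos ran from 28.8 to 56.4 CPM (median 30.8) in wild-type cortex and from 4.78 to 45.3 CPM (median 17.6) in Igf2enh-/- cortex. In 5 of 6 Igf2enh-/- libraries Fos lay below every wild-type library, and library 1 lay inside the wild-type range. The log2 difference was −0.88 (SE 0.38, adjusted p = 0.329). Junb ran from 55.6 to 108 CPM (median 68.8) in wild-type mice and from 18.1 to 77.1 CPM (median 40.4) in Igf2enh-/- mice. Here 4 of 6 libraries were below the wild-type range, at a log2 difference of −0.75 (SE 0.28, adjusted p = 0.264). Fosb ran from 15.4 to 25.8 CPM in wild-type and from 7.59 to 44.8 CPM in Igf2enh-/- mice, so its libraries spread to both sides of the wild-type range. Its log2 difference was −0.11 (SE 0.32, adjusted p = 0.914).

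Of the EGR family, whose zinc fingers bind GC-rich sites Egr2 had the largest fitted difference of the 10 genes. Egr2 ran from 13.3 to 24.1 CPM (median 16.7) in wild-type cortex and from 1.73 to 19.7 CPM (median 6.89) in Igf2enh-/- cortex. That is a log2 difference of −1.08 (SE 0.41, adjusted p = 0.266), with 4 of 6 libraries under the wild-type range. Egr4 was tight in wild-type mice, from 38.5 to 49.7 CPM (median 42.1). It ran from 17.3 to 49.0 CPM (median 26.5) in Igf2enh-/- mice, where 5 of 6 libraries were lower than any wild-type library and library 1 again was not. Its log2 difference was −0.60 (SE 0.20, adjusted p = 0.207). Egr1 ran from 346 to 431 CPM in wild-type and from 141 to 413 CPM in Igf2enh-/- mice. Libraries 1 and 7 sat among the wild-type values and the other 4 below them, at a log2 difference of −0.57 (SE 0.23, adjusted p = 0.305).

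The remaining genes act in other ways. Arc ran from 151 to 444 CPM (median 237) in wild-type cortex and from 28.4 to 237 CPM (median 131) in Igf2enh-/- cortex, a log2 difference of −1.01 (SE 0.40, adjusted p = 0.29). Its wild-type libraries were themselves spread, so that only 3 Igf2enh-/- libraries lay under all of them. These counts of libraries take both sexes together. Wild-type females had 247 to 444 CPM of Arc and wild-type males 151 to 227 CPM. Igf2enh-/- females had 28.4 to 237 CPM and Igf2enh-/- males 49.0 to 200 CPM. Nr4a1 had a log2 difference of −0.64 (SE 0.27, adjusted p = 0.311), with 4 libraries below the wild-type range of 71.9 to 157 CPM. In females it ran from 122 to 157 CPM in wild-type and from 35.5 to 113 CPM in Igf2enh-/- mice. In males these ranges were 71.9 to 82.4 CPM and 35.5 to 104 CPM. Ier2, whose product is a small nuclear protein, had the smallest adjusted p of the 10 genes, 0.14, at a log2 difference of −0.62 (SE 0.18). Its ranges were 5.22 to 16.4 CPM and 3.64 to 8.95 CPM, and only library 9 was below all wild-type libraries. In females Ier2 ran from 10.2 to 16.4 CPM in wild-type and from 5.34 to 8.95 CPM in Igf2enh-/- mice. In males the ranges were 5.22 to 7.78 CPM and 3.64 to 6.45 CPM. Npas4, a factor that neurons induce through calcium and that shapes inhibitory synapses, had a log2 difference of −0.33 (SE 0.28, adjusted p = 0.642), and no library lay below its wild-type range of 10.5 to 45.2 CPM. No gene of the 10 separated the genotypes completely, while 0.682% of all genes had every Igf2enh-/- library below every wild-type library.

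The calls in frontal cortex depended on the filter and on the test. With no filter on low counts, the same quasi-likelihood test passed 8 of the 10 genes, with adjusted p from 0.0001 (Egr4) to 0.0015 (Fos), and 1.39% of 33060 genes. The fitted differences were nearly the same in that fit, but their errors were smaller: Fos had −0.89 with an SE of 0.18. With filters that kept 17312 genes (filterByExpr) or 13414 genes none of the 10 passed. The likelihood ratio test passed Ier2 alone (adjusted p = 0.0435, 1.66% of all genes), and DESeq2 also passed Ier2 alone (adjusted p = 0.0328, 1.74%). Without library 1, Egr4 passed (adjusted p = 0.0319), and the median log2 difference of the 10 genes was −0.80.

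In striatum the same comparison gave a median log2 difference of −0.66 over the 10 genes, all 10 below 0, and none passed an adjusted p of 0.05, as 0.036% of the 13875 genes did. At an unadjusted p under 0.05 there were 7 of 10 genes, all lower, against 5.1% of all genes, and 49.8% of all genes were below 0. Arc stood out with a log2 difference of −0.95 (SE 0.25, adjusted p = 0.207). It ran from 88.1 to 245 CPM (median 152) in wild-type striatum and from 42.0 to 138 CPM (median 71.0) in Igf2enh-/- striatum, and 6 of 8 libraries lay below every wild-type library. Fos ran from 8.51 to 37.6 CPM (median 17.9) in wild-type mice and from 3.36 to 18.4 CPM (median 8.79) in Igf2enh-/- mice, with 4 of 8 libraries under the wild-type range. Its log2 difference was −1.03 (SE 0.36, adjusted p = 0.372).

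Junb had a log2 difference of −0.67 (SE 0.22, adjusted p = 0.338) in striatum, from a median of 78.1 CPM in wild-type to 41.1 CPM in Igf2enh-/- mice. Egr1 had the smallest difference among the genes with an unadjusted p under 0.05, −0.39 (SE 0.15, adjusted p = 0.411), with wild-type libraries from 196 to 391 CPM and Igf2enh-/- libraries from 173 to 323 CPM. Egr4 had −0.51 (SE 0.23, adjusted p = 0.481) and Egr2 −0.70 (SE 0.36, adjusted p = 0.54). The wild-type libraries of Egr2 already spanned 4.90 to 24.4 CPM, so that 1 of 8 Igf2enh-/- libraries lay below them. Nr4a1 had −0.66 (SE 0.29, adjusted p = 0.457), with 4 of 8 libraries below the wild-type range. Ier2 had −0.65 (SE 0.25, adjusted p = 0.398) at a low level, with at most 2.68 CPM in Igf2enh-/- and 5.95 CPM in wild-type striatum. Npas4 had −0.62 (SE 0.35, adjusted p = 0.61) and Fosb −0.17 (SE 0.23, adjusted p = 0.864). No gene of the 10 separated the genotypes, and 0.108% of all genes did in this direction.

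Leaving out libraries 15 and 20, a choice made after seeing the data, widened the striatal median to −0.81, and again none of the 10 genes passed. Averaged over the 10 genes, library 20 had the lowest log2 level of the wild-type striatal libraries (4.75). Library 15 (5.18) lay above the Igf2enh-/- median of 4.65. Npas4 moved most, to −0.86 (SE 0.29, adjusted p = 0.379), as library 20 held its lowest wild-type value, 8.38 CPM. The likelihood ratio test passed Arc alone in striatum (adjusted p = 0.0315, 0.404% of all genes).

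**Figure D2:**
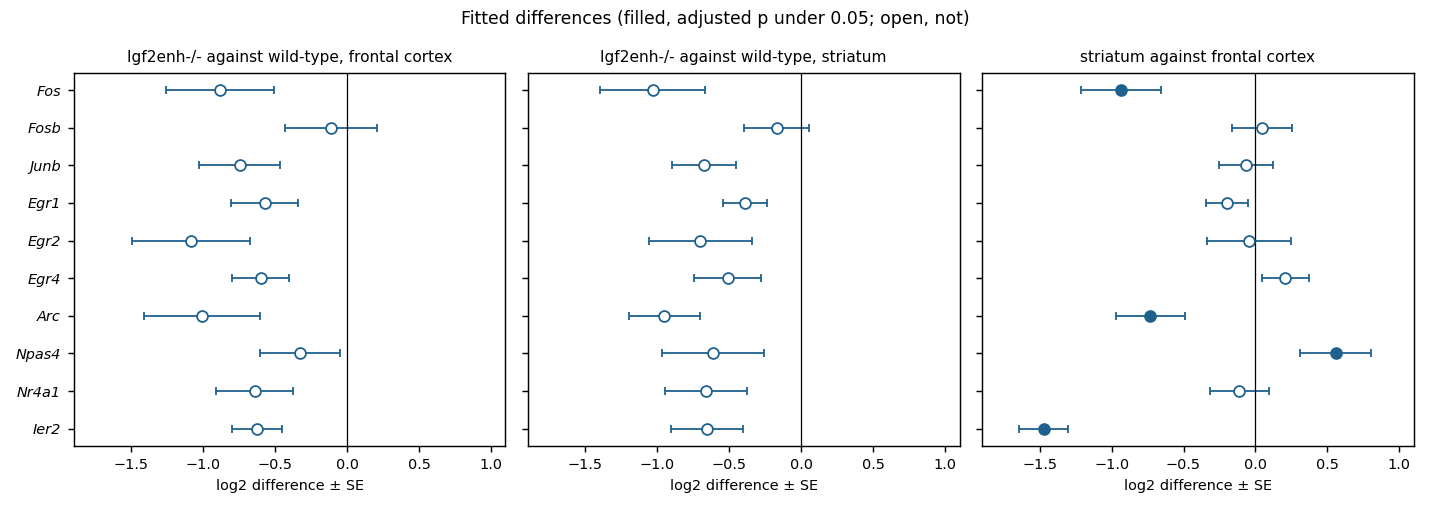
Fitted log2 differences with standard errors for the 10 genes, for genotype in frontal cortex, genotype in striatum and striatum against frontal cortex. All genotype values lie below 0 and none is filled, whereas Fos, Arc, Ier2 and Npas4 are filled in the comparison of regions.

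The interaction of genotype and region was tested over all 27 libraries. None of the 10 genes passed, and none had an unadjusted p under 0.05, against 0% of all genes passing and 3.02% at that unadjusted level. The interaction terms ran from −0.30 (Npas4, SE 0.50) to 0.37 (Egr2, SE 0.59). With errors of this size, genotype differences that are unequal between the regions could not have been detected unless they were large.

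Sex was part of every fit. Males had lower fitted levels than females for 10 of 10 genes in frontal cortex and 9 of 10 in striatum, beside 50.1% and 49.6% of all genes, and no gene of the 10 passed (background 0.0431% in cortex and 0.0432% in striatum). The largest was Ier2 in cortex, with a log2 difference of −0.71 (SE 0.18, adjusted p = 0.44). Markers of other cells moved with sex in cortex as well: all 8 meningeal markers were lower in males (median −0.41) and all 8 oligodendrocyte markers higher (median 0.28), and none passed. In striatum the fitted genotype difference was further below 0 in females than in males for all 10 genes (51.9% of all genes had the opposite sign), and the median over the 10 genes of the interaction term was 0.51 on the log2 scale. Cortical neuron markers in striatum ran the same way, with a median genotype difference of −0.58 in females (9 of 9 lower) and −0.06 in males (4 of 7 lower), an interaction above 0 for 6 of 7 at a median of 0.43, and none passed. Their part in the sex pattern was not tested. Fitted in females alone (3 wild-type and 4 Igf2enh-/-), Nr4a1 had a log2 difference of −1.27 (SE 0.29), and in males alone −0.13 (SE 0.35). The test of that difference gave an unadjusted p of 0.0429 and an adjusted p of 1, and no gene of the 10 passed in either region (background 0.0215% in cortex and 0% in striatum). In cortex without a filter on low counts, 4 of the 10 genes passed this test (Fosb, Junb, Arc and Nr4a1), beside 0.938% of all genes. With the filter the terms of these 4 were −0.91 (Fosb), 0.39 (Junb), 0.62 (Arc) and 0.67 (Nr4a1), at adjusted p from 0.783 to 0.894. The terms hardly changed without the filter, but their errors were smaller, and the cause was not tested.

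The spread among mice of a group was the most marked feature of these genes. edgeR's biological coefficient of variation, the relative spread between libraries beyond counting error, was between 20.2% (Ier2) and 52.9% (Egr2) in frontal cortex, where the median gene had 6.12%. Egr2 ranked 1 of 13936 genes in this measure, Arc 4, Fos 5 and Fosb 10, and Ier2 ranked 189. In striatum the median gene had 9.32% and the 10 genes had between 20.6% (Egr1) and 48.6% (Fos), with ranks from 96 (Fos) to 1281 (Egr1) of 13875. The ranks were thus closer to the middle in striatum, where other genes also varied more.

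In frontal cortex the spread lay mostly within the Igf2enh-/- group. The coefficient of variation of Egr1 was 9.17% among wild-type and 46.3% among Igf2enh-/- libraries, and that of Egr4 was 9.33% and 42.1%. Fos had 29.8% and 76.4%, and Egr2 22.9% and 83.8%. From the lowest to the highest Igf2enh-/- library, Egr2 differed 11.4-fold and Fos 9.47-fold, whereas the wild-type libraries differed 1.82-fold and 1.96-fold. Ier2 was the exception, with 40.05% among wild-type and 29.5% among Igf2enh-/- mice. In striatum 4 of the 10 genes had the larger coefficient in Igf2enh-/- mice. Fos had 49.5% and 58.4%, Junb 38.5% and 30.1%, Egr2 52.5% and 50.4%, and Ier2, with the widest gap, 42.5% among wild-type and 23.5% among Igf2enh-/- libraries. The difference in spread between the genotypes was not tested.

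**Figure D3:**
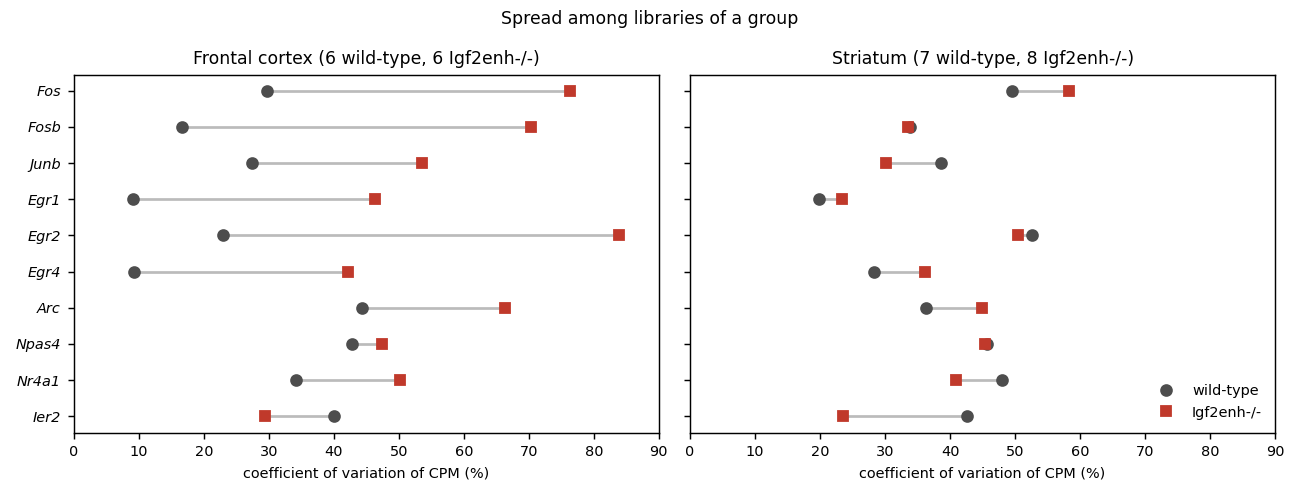
Coefficient of variation of TMM-normalized CPM for each gene within the wild-type (circles) and Igf2enh-/- (squares) libraries of each region, joined by a line. In frontal cortex the Igf2enh-/- value is higher for 9 of 10 genes, up to 83.8% for Egr2, and in striatum both genotypes lie between 19.9% and 58.4%.

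The same libraries were low or high for nearly all of the genes. In frontal cortex, Igf2enh-/- libraries 5 (female) and 9 (male) were among the lowest 3 of 12 for all 10 genes, and library 11 (male) for 8. They lay below every wild-type library for 8, 9 and 8 of the 10 genes. Igf2enh-/- library 3 did so for 6 genes and library 7 for 2. Library 1 did so for none, and its Fosb of 44.8 CPM was above every wild-type library. Averaged over the 10 genes, the log2 level was 3.83 in library 5 and 5.92 in library 1, and the wild-type libraries ran from 5.24 to 6.16. Wild-type library 4 (female) had the highest value of the region for 8 of the 10 genes.

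In striatum the Igf2enh-/- libraries also formed a low and a high set. Libraries 17, 21, 23 and 25 were below every wild-type library for 6, 7, 6 and 7 genes, while libraries 13, 19 and 27 were so for 1 gene each and library 15 for none. Their mean log2 levels were 4.14 to 4.38 for the former and 4.92 to 5.24 for the latter. The wild-type striatal libraries were split in a like way. Libraries 20, 22 and 26 had means from 4.75 to 4.95, and libraries 14, 16, 18 and 24 from 5.49 to 5.95. Wild-type library 16 (female) was highest for 7 of 10 genes. These sets were named from the levels of the genes themselves and were not compared further.

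**Figure D4:**
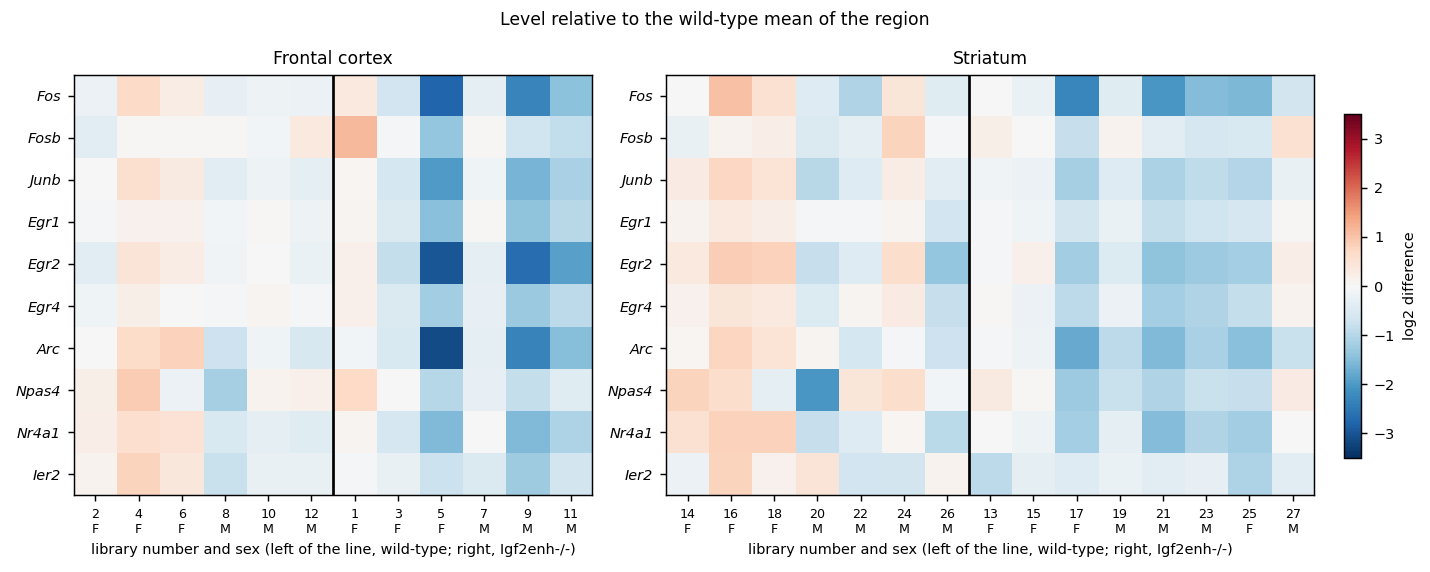
Log2 level of each gene (log2 of CPM + 0.5) in each library, relative to the mean of the wild-type libraries of that region, with wild-type libraries left and Igf2enh-/- libraries right of the line. Columns are mostly of 1 colour, darkest for libraries 5, 9 and 11 in cortex and 17 and 21 in striatum, and rows Npas4 and Ier2 break the pattern most often.

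To describe this shared order, each library's deviation from the mean of its region, genotype and sex was correlated between pairs of genes. The libraries share their depth and dissection, so these values describe and are not tested. Over 12 cortical libraries the median Pearson correlation of the 45 pairs was 0.906, with 0.997 between Junb and Egr2. Over 15 striatal libraries the median was 0.746, and the highest was 0.96 between Egr4 and Nr4a1. Junb followed the mean of the other 9 genes most closely (0.974 over 27 libraries), followed by Egr2 (0.96) and Nr4a1 (0.955). Npas4 (0.59) and Ier2 (0.274) followed it least. Ier2 followed it in cortex (0.818) and not in striatum (−0.17). There it had 37 to 141 counts per library and a biological coefficient of variation of 31.6%. The part of low counts in this was not tested.

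A like order was sought among all 13404 other genes with at least 1 CPM in all libraries. Only 12 had a correlation over 0.8 with the mean deviation of the 10 genes. The closest was 1700016P03Rik (0.983), a long noncoding RNA gene that, in the GENCODE vM1 annotation of NCBIM37, contains the genes of the microRNAs miR-212 and miR-132, both known to be induced through CREB in active neurons. These 2 share their seed, which is shown in capitals (mature sequences from RefSeq):
mmu-miR-132-3p: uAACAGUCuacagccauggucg
mmu-miR-212-3p: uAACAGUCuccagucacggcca
The counts are of the host gene and do not measure the mature microRNAs. Its log2 difference between genotypes was −0.70 (SE 0.40, adjusted p = 0.46) in frontal cortex and −0.82 (SE 0.32, adjusted p = 0.426) in striatum, so 1700016P03Rik did not pass either.

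Next came Dusp1 (0.929), a phosphatase that turns MAP kinases off, Per1 (0.916), a clock gene with CRE sites, Irf2bpl (0.888) and Gpr3 (0.871), a receptor with constant activity. Sik1 (0.865), a kinase that restrains the CREB coactivators, Fosl2 (0.862), Nr4a3 (0.841), Per2 (0.839) and Nab2 (0.825), a repressor of EGR proteins, completed the first 10. Dusp1 had log2 genotype differences of −0.68 (SE 0.25, adjusted p = 0.245) in cortex and −0.66 (SE 0.15, adjusted p = 0.159) in striatum.

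Other genes of the activity response were read from lists chosen by function. Of 15 further rapid transcription factors tested, 12 were lower in Igf2enh-/- mice in each region and none passed. The median log2 differences were −0.27 in cortex and −0.18 in striatum. The smallest adjusted p in cortex was that of Klf10 (−0.63, SE 0.14, adjusted p = 0.0741), and in striatum that of Per1 (−0.49, SE 0.09, adjusted p = 0.0587). Of 18 other rapid genes, 17 were lower in cortex (median −0.38) and 16 in striatum (median −0.35). Only Arl4d, a small GTPase, passed: it fell by 0.75 on the log2 scale in cortex (SE 0.15, adjusted p = 0.0497) and had −0.67 (SE 0.15, adjusted p = 0.146) in striatum. Ccn1, a matrix protein, had −0.92 (SE 0.16, adjusted p = 0.0587) in striatum.

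The slower wave did not show this. Of 19 delayed-response genes tested in cortex 13 were higher, with a median log2 difference of 0.05, and of 17 in striatum 11 were higher, with a median of 0.07. None passed. Inhba, a subunit of activin, had 0.40 (SE 0.08, adjusted p = 0.0604) in cortex. Upstream regulators, which include Creb1, Srf, Elk1 and the MEF2 factors, had medians of −0.04 and −0.02 over 29 genes, and none passed.

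A set of clock output genes moved with these genotype differences. All 10 were lower in both regions, at medians of −0.31 and −0.26, and Ciart, Dbp and Nr1d1 passed in cortex (log2 differences of −1.24, −0.80 and −0.39, adjusted p = 0.000467, 0.00449 and 0.0313). Ciart alone passed in striatum (−1.18, adjusted p = 0.000668). Within groups these genes followed the immediate-early genes little: the median correlation was 0.04, and Per2 had the highest. Genes induced by glucocorticoids went both ways, with medians of 0.02 and −0.05 over 12 genes, and none passed. In cortex 4 of the 12 had an unadjusted p under 0.05, all lower, led by Sgk1 (−0.55, SE 0.12, adjusted p = 0.0581) and Ddit4 (−0.54, SE 0.12, adjusted p = 0.0651). In striatum Ddit4 had −0.61 (SE 0.16, adjusted p = 0.209) and Sgk1 −0.67 (SE 0.25, adjusted p = 0.389), and the median of the list was −0.50 in males and 0.06 in females. Their median correlation with the 10 genes within groups was −0.04. All 8 oligodendrocyte markers were lower in Igf2enh-/- mice in both regions (medians −0.19 and −0.31, none passed). Their summed level ran from 1560 to 2078 CPM in wild-type and from 971 to 2076 CPM in Igf2enh-/- cortex, and their median correlation with the 10 genes was −0.48. Of 8 markers of meningeal cells 7 were higher in Igf2enh-/- cortex (median 0.39, none passed), with a summed level from 47.7 to 115 CPM in wild-type and from 72.5 to 130 CPM in Igf2enh-/- libraries. All 7 cortical neuron markers tested in striatum were lower in Igf2enh-/- mice (median −0.29, none passed), and 6 of 10 in cortex (median −0.02). Their summed level ran from 187 to 1431 CPM in wild-type and from 322 to 1084 CPM in Igf2enh-/- striatum. Wild-type library 16, highest for 7 of the 10 genes, had 1047 CPM, and Igf2enh-/- library 23 had 1084 CPM. The part of clock genes, glucocorticoid genes and these markers in the genotype differences was not tested.

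General neuronal markers had medians of −0.01 in cortex and −0.003 in striatum over 8 genes, and their summed level overlapped between genotypes (8363 to 8805 CPM and 7502 to 8883 CPM in cortex). The RNA measures given for each sample overlapped too. In cortex the RNA concentration ran from 187 to 424 ng per microlitre in wild-type and from 135 to 514 in Igf2enh-/- samples, and libraries 5, 9 and 11 had 254, 402 and 377. Library 1, which lay below the wild-type range for none of the 10 genes, was the lowest of the region in RNA concentration (135). Igf2enh-/- library 3, which lay below that range for 6 of the 10 genes, had nearly the same concentration (136). Library 1 was also at the Igf2enh-/- extreme for most of the summed lists. It had 971 CPM of oligodendrocyte markers, where the next library had 1463, 7502 CPM of general neuronal, 166 CPM of striatal neuron and 130 CPM of meningeal markers. Its sums of cortical neuron (2651 CPM), choroid plexus (170 CPM) and clock output (1071 CPM) genes were the lowest of the Igf2enh-/- cortical libraries. Those of endothelial (280 CPM) and glucocorticoid-induced (652 CPM) genes were the highest. The absorbance ratio 260/280 was 2.08 or 2.09 in wild-type cortex and 2.07 or 2.08 in Igf2enh-/- cortex. In striatum 2 wild-type libraries stood apart. Library 22 had 61.2 ng per microlitre, where the others had at least 154, and a 260/280 ratio of 2.04. Library 26 had the lowest 260/230 ratio of all, 1.84, and also the lowest wild-type striatal level of Egr1, Egr2, Egr4, Arc and Nr4a1. The part of RNA quality in these values was not tested.

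Striatum and frontal cortex were compared next, with both genotypes in 1 fit. In this contrast 77.7% of 13414 genes passed, 38.3% with the lower and 39.4% with the higher level in striatum, and 4 of the 10 immediate-early genes did, 3 lower and 1 higher. Ier2 fell by 1.47 on the log2 scale from cortex to striatum (SE 0.17, adjusted p = 1.28e-08), from a wild-type mean of 9.94 ± 3.98 CPM (SD, n = 6) to 3.49 ± 1.49 CPM (SD, n = 7). Fos fell by 0.93 (SE 0.28, adjusted p = 0.00355), from 36.7 ± 10.9 to 20.2 ± 9.98 CPM in wild-type mice. Arc fell by 0.73 (SE 0.24, adjusted p = 0.00797), from 272 ± 121 to 153 ± 55.7 CPM. Npas4 rose by 0.56 (SE 0.25, adjusted p = 0.0429), from 26.4 ± 11.3 to 42.0 ± 19.2 CPM. None of the 10 genes had regions free of overlap, which 13.5% of all genes had with striatum lower and 12.5% with striatum higher.

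The other 6 genes had log2 differences between −0.20 (Egr1, SE 0.14, adjusted p = 0.211) and 0.21 (Egr4, SE 0.16, adjusted p = 0.249). Junb (−0.07, SE 0.19), Egr2 (−0.04, SE 0.29), Fosb (0.04, SE 0.21) and Nr4a1 (−0.11, SE 0.21) lay nearer to 0. The call for Npas4 was lost on leaving out any of 12 single libraries (adjusted p up to 0.0791), without the sex term, and in each genotype alone. In wild-type libraries alone Egr1 passed with −0.28 (adjusted p = 0.0292) beside Ier2, Fos and Arc, where 65.4% of all genes passed. In Igf2enh-/- libraries alone only Ier2 of the 10 did, where 68% of all genes passed. Without libraries 15 and 20 all 4 genes passed.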

How the data were processed

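RNA from frontal cortex and striatum was ribosomal RNA-depleted, converted to libraries and sequenced as single-end reads. Per the labels and methods, reads were trimmed by the authors (Trim Galore 0.5.0), mapped to GRCm38 (STAR) and deposited as raw read counts per GENCODE gene for each library, as 1 table per region. Whether counting used strand was not given in the sources used here. Ensembl identifiers were given symbols through a gene name table, and all 10 symbols matched 1 row each.

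For each region, genes that reached 1 CPM in all its libraries entered edgeR (4.0.16, R 4.3.3) and its quasi-likelihood F-test, with TMM factors, terms for sex and genotype, and Benjamini-Hochberg adjustment over all genes tested. The authors' methods name edgeR's likelihood ratio test, which was run as an alternative, as were DESeq2 (1.42.0), limma-voom (limma 3.58.1), other scalings and filters, no sex term and each library left out. Regions were compared over all 27 libraries, treated as separate mice because the labels do not tie them. Nothing in the labels gives technical replicates. Standard errors are the log2 difference divided by the square root of F. Depth was 23686945 to 33926904 counts per library, with TMM factors from 0.98 to 1.03, and levels on a log2 scale used a pseudocount of 0.5 CPM. All 10 genes were described. From every other list of activity, regulator, clock and glucocorticoid genes up to 5 genes of smallest p in a region were eligible to be named, with any that passed, as were the 10 genes with the most similar deviations. The genes, lists and tests were chosen with earlier results of these data known. The scripts were tested on simulated counts.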

Additional observations from a re-analysis of the deposited data

Results flagged for a closer look

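Of 44 comparisons of the 10 genes and their mean level within the 4 groups, 2 held a library that stood apart from the rest of its group by Dixon's test on the log2 scale, which chance alone does in about 1 of 20 groups. Egr1 in wild-type striatum was lowest in library 26 (male), at 196 CPM, where the other 6 libraries ran from 297 to 391 CPM, and its gap to the nearest library was 0.599 of the whole range. Library 26 also had the lowest 260/230 absorbance ratio of all samples, 1.84, and its part in the Egr1 value was not tested. Npas4 in wild-type striatum was lowest in library 20 (male), at 8.38 CPM against 29.2 to 62.4 CPM in the other 6 libraries, with a gap of 0.617 of the range. Library 20 also had the lowest summed level of striatal neuron markers, and its part in the Npas4 value was not tested. Without library 20 the log2 difference of Npas4 between genotypes in striatum was −0.79 (adjusted p = 0.347), and without library 26 that of Egr1 was −0.47 (adjusted p = 0.258), as against −0.62 and −0.39 with all libraries.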

How the results depend on the processing

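The median log2 difference of the 10 genes between genotypes kept its sign under every alternative run in both regions, and moved by less than the spread among libraries (with 1 library left out, −0.87 to −0.50 in frontal cortex and −0.80 to −0.53 in striatum). The number of the 10 genes with an adjusted p under 0.05 for genotype in frontal cortex was 0 with all libraries, 8 with no filter on low counts, 1 by the likelihood ratio test and 1 by DESeq2. Genes passing among all genes were 53, and then 459, 232 and 242. By DESeq2 5 of the 10 genes had an unadjusted p under 0.05 (12.4% of all genes). In striatum 5 genes of all passed, and 56 by the likelihood ratio test (with 1 of the 10), 112 by DESeq2, 3 by limma-voom, 13 with filterByExpr, 10 with no filter and 3 without the sex term. The interaction of genotype and sex in frontal cortex passed 3 genes, 12 by the likelihood ratio test and 310 with no filter, where 4 of the 10 passed and 7 had an unadjusted p under 0.05 (6.32% of all genes). In striatum it passed 0 genes and, by the likelihood ratio test, 1. With no filter the fitted errors in cortex were smaller, and the cause was not tested.

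Leaving out 1 library at a time, genes passing ranged from 8 (without wild-type library 10) to 99 (without Igf2enh-/- library 1) in cortex and from 3 to 8 in striatum. Of the 10 genes, 0 to 1 passed in cortex. Between 4 and 9 had an unadjusted p under 0.05 in each region, beside 10.9% to 15.4% of all genes in cortex and 7.55% to 10.9% in striatum, with 4 without cortical library 9 (5 without library 11) or striatal library 16. Fosb in cortex ranged from −0.54 to 0.0502, turning above 0 without library 5 or library 11. Against frontal cortex, 4 to 8 of the 10 genes were lower in striatum, with 4 when library 7 was left out, and values near 0 changed sign: Junb from −0.15 to 0.0526, Egr2 from −0.16 to 0.10, Fosb from −0.03715 to 0.26 and Nr4a1 from −0.20 to 0.0371. In Igf2enh-/- libraries alone 1 of the 10 genes passed between regions, 1 had an unadjusted p under 0.05, and Egr2 turned to 0.15. Without libraries 15 and 20, an alternative chosen after seeing the data, the genotype by region terms of Junb (−0.06975), Egr4 (−0.00112) and Ier2 (0.11) changed sign. The labels share no number between groups. A replicate block that set cortical library n beside striatal library n + 12 (12 pairs, chosen after seeing the data) passed 5 of the 10 genes between regions (76.1% of all genes), adding Egr4 (0.22, SE 0.07, adjusted p = 0.00635), with Npas4 at 0.46 (SE 0.11, adjusted p = 0.00135) and Egr2 turning to 0.049. The same 24 libraries unpaired passed 3 of the 10 (76.7%), and Npas4 had an adjusted p of 0.0718. Npas4 was higher in striatum in 11 of these 12 pairs and Fos lower in 12. For genotype by region the block passed none (0 of the 10 at an unadjusted p under 0.05, 2.43% of all genes), and Fosb (0.023), Egr4 (−0.061) and Ier2 (0.14) changed sign. Unpaired, the 24 libraries gave Egr4 −0.090 and Ier2 0.11. Over 13414 genes the pairs’ deviations had correlations from −0.15 to 0.26, over 0.1 in 5 pairs, and 1 of 12 cortical libraries correlated best with its own partner. For the mean deviations of the 10 genes the correlation over these pairs was 0.824. Deviations in 2 tissues, taken from means of few libraries, cannot decide whether a pair came from 1 mouse. The labels do not say so, and the numbers were therefore not taken to pair the samples.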

Other observations

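Libraries are numbered 1 to 12 in frontal cortex and 13 to 27 in striatum, and each cortical library and the striatal library with a number higher by 12 had the same genotype and sex in 12 of 12 cases. Over these 12 pairs the mean deviations of the 10 immediate-early genes had a Pearson correlation of 0.824 and a Spearman correlation of 0.832 (Pearson 0.721 without the 2 farthest). The labels do not say that such libraries came from the same mouse, and this numbering entered only the block described above.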
